A study of Mus musculus with 6 samples.

Results

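Lactate production, export and acid handling were described in MS-5 stromal cells through 9 genes, chosen by name out of 35968 genes in the deposited tables. They were Ldha and Ldhb (lactate dehydrogenase subunits), Slc16a1, Slc16a3 and Slc16a7 (the monocarboxylate transporters MCT1, MCT4 and MCT2), Bsg and Emb (basigin and embigin, the chaperones of these transporters), and Car9 and Car12 (carbonic anhydrases at the cell surface). Of the 9 genes, 7 passed the filter on low counts and entered the test, and Slc16a7 and Car12 did not. In co-culture, Slc16a3 rose from 0.245 ± 0.146 to 5.72 ± 3.90 TPM (a deposited abundance corrected for transcript length, SD, n = 3) and was the only one of the 7 past the threshold, an adjusted p under 0.1, where 3.71% of all genes tested were higher in co-culture. That call was lost without MO1, MO2 or MO3 (edgeR adjusted p = 0.304, 0.146 and 0.287) and with protein-coding transcripts only (0.13). MC2, the library with the highest leukocyte marker level, held 60.3% of that difference. Ldha stood at 838 ± 160 TPM in MS-5 only and 1801 ± 274 TPM in co-culture (SD, n = 3), and Bsg at 888 ± 70.3 and 1323 ± 146 TPM (SD, n = 3). Neither was past the threshold in edgeR's test on all 6 libraries without a covariate, the test used throughout unless another is named. Ldhb, Slc16a1, Emb and Car9 overlapped between the groups.

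Lactate dehydrogenase is a tetramer of A and B subunits that interconverts pyruvate and lactate, and regenerates the NAD+ that glycolysis needs. Lactate leaves the cell together with a proton through monocarboxylate transporters, which reach the plasma membrane only when bound to basigin or embigin. MCT4 is known as the exporter of strongly glycolytic cells, and MCT1 carries lactate either way. Carbonic anhydrases 9 and 12 hydrate carbon dioxide outside the cell, and CA9 is a textbook target of hypoxia-inducible factor. Stromal cells of the bone marrow support haematopoietic cells and are in contact with leukaemic cells in acute myeloid leukaemia (AML).

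RNA-seq compared MS-5, a mouse bone marrow stromal line, grown by itself (MS-5 only, libraries MO1, MO2 and MO3) with MS-5 co-cultured for 24 hr with SKM-1, a human AML line (libraries MC1, MC2 and MC3). Both groups were kept in RPMI medium with serum, and no allele or drug set them apart. In co-culture, SKM-1 cells were laid on confluent MS-5 cells at 4 AML cells per stromal cell and 750000 AML cells per ml. A PBS wash and light trypsin treatment were later used to take off leukaemic cells still attached. The comparison asks how stromal gene expression differs when AML cells are present. A single stromal line and a single AML line were used, and nothing in the sources says that the 3 libraries of a group came from separate cultures, so that the p-values measure only the spread between these libraries. In bulk RNA, fewer cells of a type and less RNA per cell cannot be told apart.

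The libraries held between 23978881 and 35694987 estimated counts. MO2 and MC3 stood apart from the other 4, with mitochondrial genes at 6.07% and 5.92% of the counts against 10.6% to 13.2%, and with more transcripts detected, 65170 and 66456 against 51533 to 57350. All 12 listed stromal markers were tested, led by Vim at 2805 to 4487 TPM. None passed the threshold by edgeR's test (1 at an unadjusted p under 0.05, as were 1885 of all 13221 genes tested), by DESeq2 or by limma. But 3 of them, Fn1, Pdgfra and Pdgfrb, were higher in co-culture in an edgeR fit with a covariate for MO2 and MC3, where 13.9% of all genes tested were. Lepr, a marker of marrow stromal cells, was at 0.0132, 0.277 and 0 TPM in MO1, MO2 and MO3 and at 0.726, 0.375 and 0.775 TPM in MC1, MC2 and MC3, without overlap, and did not pass (log2 fold change 1.79, SE 1.05, edgeR adjusted p = 0.533). At or near 0 in MO1 and MO3, Lepr passed the low-count filter only through co-culture, so that its values are a description. Of 20 leukocyte markers, 12 passed the low-count filter and 6 were past the threshold and higher in co-culture, where 3.71% of all genes tested were. Irf8, Vav1, Laptm5 and Ptprc, all among the 6, passed the filter only through co-culture, so that the count is a description. The summed level of the 20 markers was 29.7 to 62.7 TPM in MS-5 only against 99.6 TPM in MC1, 460 TPM in MC2 and 155 TPM in MC3. Irf8 and Kit were at 0 in all MS-5 only libraries, while Tyrobp, Csf3r and Cd48 were at or near 0 in all 6. SKM-1 RNA is human, and the reads were matched to mouse transcripts.

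The promoters are shown here because several members are known targets of hypoxia-inducible factor, which binds the core letters ACGTG or GCGTG. They come from a RefSeq table (GRCm38.p6) of 300 bases, 250 before and 50 after a gene's start, that held 7 of the 9 members. Capitals mark ACGTG and GCGTG on either strand, where CACGTG holds ACGTG on both strands and is then counted as 2 matches. The windows are those of Ldha (the first of 2, chr7:46845554-46845853, plus strand), Slc16a3 (chr11:120948817-120949116, plus strand), Slc16a1 (chr3:104638414-104638713, plus strand) and Ldhb (chr6:142507908-142508207, minus strand, shown 5′ to 3′ of the gene).
Ldha: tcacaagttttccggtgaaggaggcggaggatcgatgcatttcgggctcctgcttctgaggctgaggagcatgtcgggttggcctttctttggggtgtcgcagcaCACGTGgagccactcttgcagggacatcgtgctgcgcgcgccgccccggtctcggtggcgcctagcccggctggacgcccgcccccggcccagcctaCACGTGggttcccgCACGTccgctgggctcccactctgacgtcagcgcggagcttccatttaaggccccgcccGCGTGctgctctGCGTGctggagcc
Slc16a3: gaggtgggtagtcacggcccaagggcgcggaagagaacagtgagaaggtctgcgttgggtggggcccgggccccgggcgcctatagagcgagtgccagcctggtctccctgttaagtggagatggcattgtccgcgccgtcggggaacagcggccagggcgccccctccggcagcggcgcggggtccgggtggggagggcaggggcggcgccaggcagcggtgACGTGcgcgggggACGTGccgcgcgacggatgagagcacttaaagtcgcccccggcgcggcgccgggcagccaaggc
Slc16a1: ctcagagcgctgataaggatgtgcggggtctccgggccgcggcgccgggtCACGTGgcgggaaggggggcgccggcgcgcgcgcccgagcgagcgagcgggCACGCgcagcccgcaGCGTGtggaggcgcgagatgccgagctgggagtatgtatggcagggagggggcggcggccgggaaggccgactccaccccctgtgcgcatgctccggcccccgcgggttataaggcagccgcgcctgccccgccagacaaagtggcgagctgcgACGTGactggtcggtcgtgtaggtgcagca
Ldhb: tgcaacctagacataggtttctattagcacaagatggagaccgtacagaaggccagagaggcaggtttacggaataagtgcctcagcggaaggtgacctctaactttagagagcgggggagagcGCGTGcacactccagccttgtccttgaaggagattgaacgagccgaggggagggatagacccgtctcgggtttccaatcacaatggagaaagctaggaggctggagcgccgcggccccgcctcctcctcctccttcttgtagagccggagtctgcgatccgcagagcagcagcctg
The Ldha window held 5 matches of ACGTG and 2 of GCGTG, and its second window (chr7:46846832-46847131) held 0 and 2. The Slc16a3 window held 2 matches of ACGTG, the Slc16a1 window 3 matches of ACGTG and 2 of GCGTG, and the Ldhb window 1 of GCGTG. Car9 had 1 match of ACGTG, and Emb and Car12 had none of either. Among all 32851 windows of the table, 19.6% held ACGTG, 32.4% held GCGTG and 43.8% held at least one of them, and 0.746% held 4 or more matches of ACGTG. A match is a description of the letters, not of a bound site.

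The lactate dehydrogenase subunits were at very different levels. Ldha (chromosome 7, 46841475 to 46855627, GRCm38) makes the A subunit, which favours lactate formation. Its level was 1017 TPM in MO1, 712 TPM in MO2 and 783 TPM in MO3, and 2114 TPM in MC1, 1604 TPM in MC2 and 1685 TPM in MC3. Every co-culture library was above every MS-5 only library, in TPM and in counts scaled to library size by TMM (CPM, 597 to 1323 against 1398 to 2741). By mean TPM it ranked 114 of the 13221 genes tested. The log2 fold change was 1.09 (SE 0.40), with an adjusted p of 0.272 by edgeR's quasi-likelihood test, so that the difference did not pass the threshold of 0.1 there, while DESeq2 and limma called it (adjusted p = 0.0463 and 0.0391). Among the libraries that resemble each other, the ratio was alike: MC1 and MC2 together were 2.07 times MO1 and MO3 in TPM, and MC3 was 2.37 times MO2. With a covariate for MO2 and MC3, Ldha rose by a log2 fold change of 1.11 (SE 0.13, edgeR adjusted p = 0.011), and with those libraries left out by 1.07 (SE 0.18, edgeR adjusted p = 0.075). One transcript, Ldha-202, held 98.1% of the TPM of the gene.

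Ldhb (chromosome 6, 142490249 to 142507957) makes the B subunit, which favours the oxidation of lactate. It stood at 28.6 TPM in MO1, 45.8 TPM in MO2 and 38.0 TPM in MO3, and at 34.0 TPM in MC1, 31.6 TPM in MC2 and 44.6 TPM in MC3. The groups overlapped, and MO2 and MC3 were the highest library of each group in TPM and the lowest in TMM-scaled CPM (29.5 and 29.0). The log2 fold change was -0.03 (SE 0.18, edgeR adjusted p = 0.983), and it turned positive without MO3 (0.14) or MC3 (0.05). Ldhb was 2.73%, 6.04% and 4.63% of the summed TPM of both subunits in MO1, MO2 and MO3, and 1.58%, 1.93% and 2.58% in MC1, MC2 and MC3. The shares did not overlap, with means of 4.47% ± 1.66 and 2.03% ± 0.506 (SD, n = 3) and an exact two-sided permutation p of 0.1, the smallest that 3 libraries against 3 can give.

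**Figure D1:**
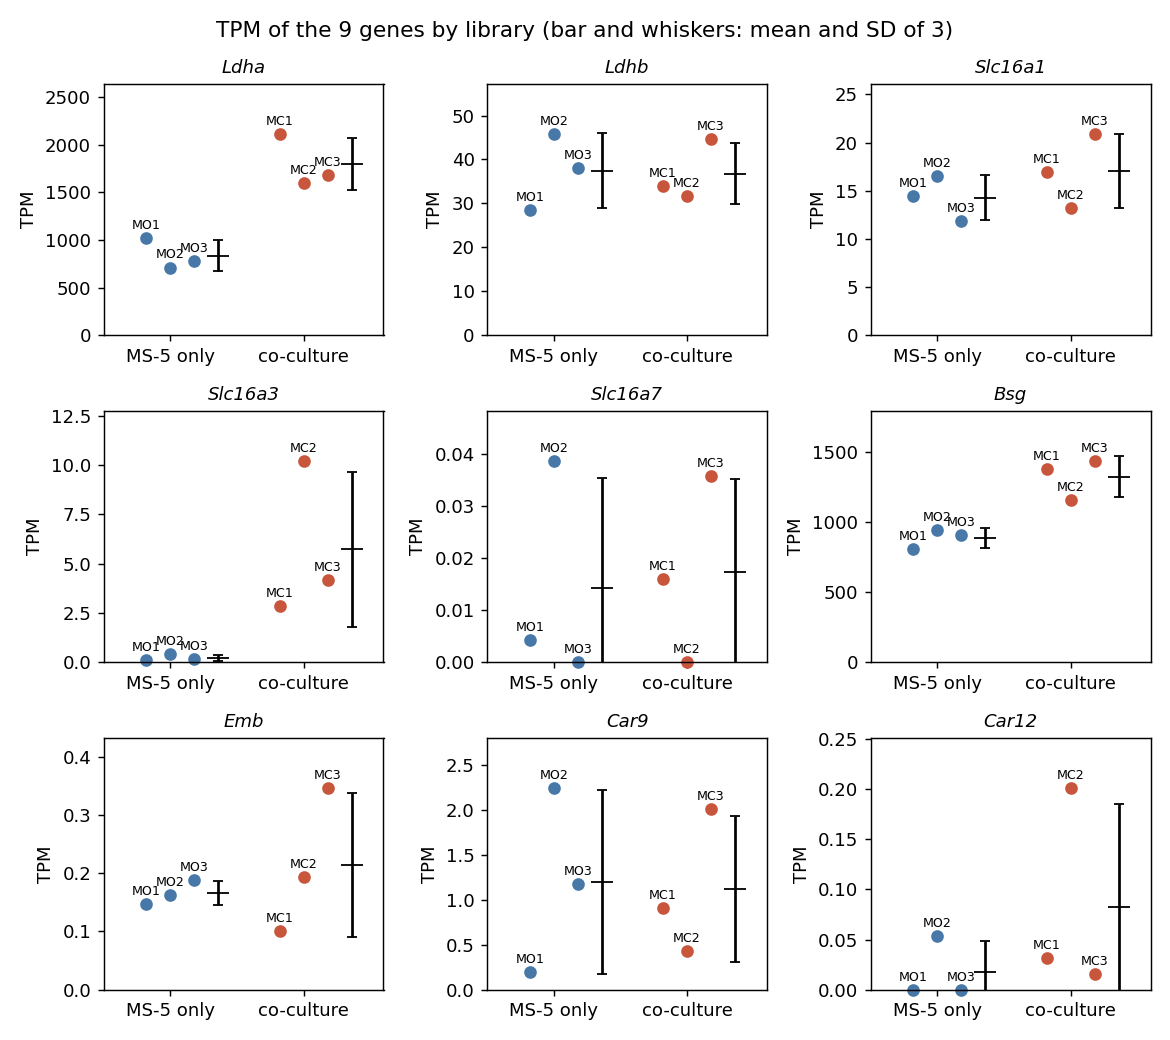
TPM of each of the 9 genes in the 3 MS-5 only libraries (blue) and the 3 co-culture libraries (red), with the mean and SD of each group in black; every panel has its own linear axis that starts at 0. Ldha, Bsg and Slc16a3 have all 3 co-culture libraries above all 3 MS-5 only libraries, and the highest Slc16a3 point, 10.2 TPM, is MC2.

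The monocarboxylate transporters fell into 3 levels. Slc16a1 (chromosome 3, 104638668 to 104658462) encodes MCT1 and was the main one in MS-5 only, at 14.5 TPM in MO1, 16.5 TPM in MO2 and 11.9 TPM in MO3. In co-culture it was at 17.0 TPM in MC1, 13.2 TPM in MC2 and 20.9 TPM in MC3. The groups overlapped, and the log2 fold change was 0.24 (SE 0.17, edgeR adjusted p = 0.624). It was past the threshold in only one fit tried, that with the covariate and without MC2 (log2 fold change 0.33, SE 0.11, edgeR adjusted p = 0.0799).

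Slc16a3 (chromosome 11, 120948480 to 120960868) encodes MCT4. It was at 0.133 TPM in MO1, 0.411 TPM in MO2 and 0.192 TPM in MO3, and at 2.84 TPM in MC1, 10.2 TPM in MC2 and 4.17 TPM in MC3. The corresponding estimated counts were 13, 28 and 17 against 141, 480 and 155. The groups did not overlap, and MC2 was far above the other co-culture libraries. Slc16a3 rose with a log2 fold change of 3.70 (SE 0.73, edgeR adjusted p = 0.0764), a call that was lost with protein-coding transcripts only (adjusted p = 0.13) and at a threshold of 0.05. With protein-coding transcripts the log2 fold change was 3.69. On log2(TPM + 0.1), log2(TPM + 0.5) and log2(TPM + 1), limma gave folds of 15.5, 7.47 and 4.88. Across all 13221 genes tested, 3.71% were higher in co-culture at this threshold and 0.666% were lower, against 1 and 0 of the 7 members. Those shares were 491 and 88 genes, and on log2(TPM + 0.5) with limma 339 and 17. Without MC2 the fold fell from 13 to 6.02 (log2 fold change 2.59, SE 0.37, edgeR adjusted p = 0.0368). Without MO1, MO2 or MO3 Slc16a3 was no longer past the threshold (edgeR adjusted p = 0.304, 0.146 and 0.287) while its fold was 11.4, 14.8 and 13.4, and neither was any other gene, with 1358, 2645 and 1462 genes at an unadjusted p under 0.05.

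The counts of Slc16a3 were divided differently among its annotated transcripts in the 2 groups. Slc16a3-201, Slc16a3-202 and Slc16a3-208 have the same coding exons and differ at their ends. Slc16a3-201 begins at 120948480, Slc16a3-202 at 120949067 and Slc16a3-208 at 120949081 (the promoter shown for Slc16a3 is that of Slc16a3-202), and the last exon of Slc16a3-208 is 3014 bases long against 921 and 1146. In MS-5 only, Slc16a3-208 had 13, 24 and 17 estimated counts in MO1, MO2 and MO3, and the others together had at most 4 in a library. In co-culture, Slc16a3-208 had 17, 15 and 24 in MC1, MC2 and MC3, which is 56 in all against 54 in MS-5 only. The higher co-culture counts were thus on the other transcripts. Slc16a3-201 had 108, 451 and 51 in MC1, MC2 and MC3, and Slc16a3-202 had 10, 11 and 75, so that MC3 differed from MC1 and MC2 in which of them was higher. Slc16a3-206, which has no coding exons in the annotation, had 3 to 5 per co-culture library. The division of reads among transcripts that share exons is an estimate by Kallisto.

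**Figure D2:**
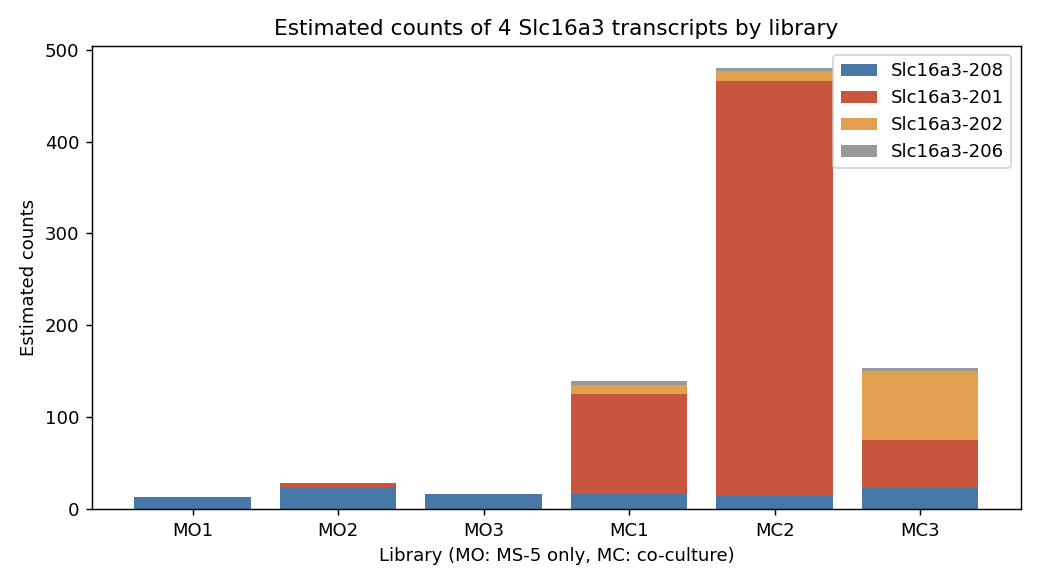
Estimated counts of 4 Slc16a3 transcripts, stacked, in each of the 6 libraries on a linear axis from 0. Slc16a3-208 (blue) stays between 13 and 24 in all libraries, while Slc16a3-201 (red) reaches 451 in MC2 and Slc16a3-202 (orange) 75 in MC3.

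Slc16a7 (chromosome 10, 125219270 to 125389465) encodes MCT2, a transporter of high affinity. It had 1, 8 and 0 estimated counts in MO1, MO2 and MO3 and 3, 0 and 8 in MC1, MC2 and MC3. A count of 0 allows up to 3 counts, or 0.125 CPM in MO3 and 0.114 CPM in MC2, for counting error only. A difference was not detectable at this depth. Within the 3 transporters, Slc16a3 took 0.911%, 2.42% and 1.59% of the summed TPM in MO1, MO2 and MO3, and 14.3%, 43.4% and 16.6% in MC1, MC2 and MC3. The means were 1.64% ± 0.755 and 24.8% ± 16.2 (SD, n = 3), with an exact two-sided permutation p of 0.1, again the smallest possible, and the difference fell from 23.1 to 13.8 percentage points without MC2 and to 12 on TMM-scaled CPM. Slc16a1 therefore remained the transporter with the highest TPM in each of the 6 libraries.

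The chaperones were at opposite ends of the range of levels. Bsg (chromosome 10, 79704491 to 79711969) encodes basigin, the partner of MCT1 and MCT4, and ranked 136 of 13221 by mean TPM. It was at 810 TPM in MO1, 945 TPM in MO2 and 910 TPM in MO3, and at 1377 TPM in MC1, 1157 TPM in MC2 and 1434 TPM in MC3. The groups did not overlap in TPM, but they did in TMM-scaled CPM, where MO3 was at 934 and MC3 at 924. The log2 fold change was 0.57 (SE 0.26, edgeR adjusted p = 0.393). With the covariate for MO2 and MC3 it rose by 0.58 (SE 0.09, edgeR adjusted p = 0.0156), and with those libraries left out by 0.59 (SE 0.13, edgeR adjusted p = 0.0821). Within the classes, MC1 and MC2 together were 1.47 times MO1 and MO3 in TPM, and MC3 was 1.52 times MO2. Bsg-205 held 97.7% of the TPM of the gene.

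Emb (chromosome 13, 117208536 to 117274415) encodes embigin, the partner of MCT2. Its estimated counts were 7, 8 and 11 for MO1, MO2 and MO3 and 6, 12 and 17 for MC1, MC2 and MC3, or 0.101 to 0.346 TPM over all 6 libraries. The log2 fold change of 0.19 (SE 0.58, edgeR adjusted p = 0.961) had the opposite sign in 4 of the other fits. With that SE, a small difference was not detectable.

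The surface carbonic anhydrases were scarce in both groups. Car9 (chromosome 4, 43506966 to 43513729) had 8, 26 and 11 estimated counts in MO1, MO2 and MO3 and 8, 9 and 21 in MC1, MC2 and MC3. Its levels were 0.191, 2.24 and 1.17 TPM against 0.910, 0.427 and 2.01 TPM, highest in MO2 and MC3. The groups overlapped (log2 fold change -0.42, SE 0.56, edgeR adjusted p = 0.854), and the sign turned without MO2 (0.01) and on log2(TPM + 0.5) with limma (0.02). Car12 (chromosome 9, 66713686 to 66766845) was counted 0, 2 and 0 times in MO1, MO2 and MO3 and 2, 4 and 1 times in MC1, MC2 and MC3, which is at or near the limit of 3 counts that a 0 allows.

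The order of the levels by mean TPM in MS-5 only was Bsg, Ldha, Ldhb, Slc16a1, Car9, Slc16a3, Emb, Car12 and Slc16a7. Bsg and Ldha overlapped in range, as did Car12 and Slc16a7, and Slc16a3 overlapped with both Car9 and Emb. In co-culture Ldha came first, ahead of Bsg in all 3 libraries, and Slc16a3 came before Car9, also in all 3. On the TPM scale the groups of 3 of the 7 members tested did not overlap with co-culture higher, against 7.68% of all genes tested (7.53% were lower without overlap). On the TMM-scaled CPM this held for Ldha and Slc16a3, against 11.6% of all genes (9.6% lower).

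The call on Ldha and Bsg depended on the test and on how MO2 and MC3 were handled. On all 6 libraries with no covariate, Ldha was past the threshold by DESeq2's Wald test (adjusted p = 0.0463) and by limma on log2(TPM + 0.5) (adjusted p = 0.0391), and Bsg was not by either (adjusted p = 0.148 and 0.112), though it was by limma with a pseudocount of 0.1 (adjusted p = 0.0817). With the covariate in edgeR, 3 of the 7 members were higher in co-culture (Ldha, Slc16a3 and Bsg) where 13.9% of all genes tested were higher and 16.4% lower. With MO2 and MC3 left out the same 3 were higher, where 7.92% of all genes were. With the replicate number as a block, 1 of 7 was higher, where 3.35% of all genes were. The median log2 fold change of the 7 members was 0.24, and that of all genes tested -0.02.

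**Figure D3:**
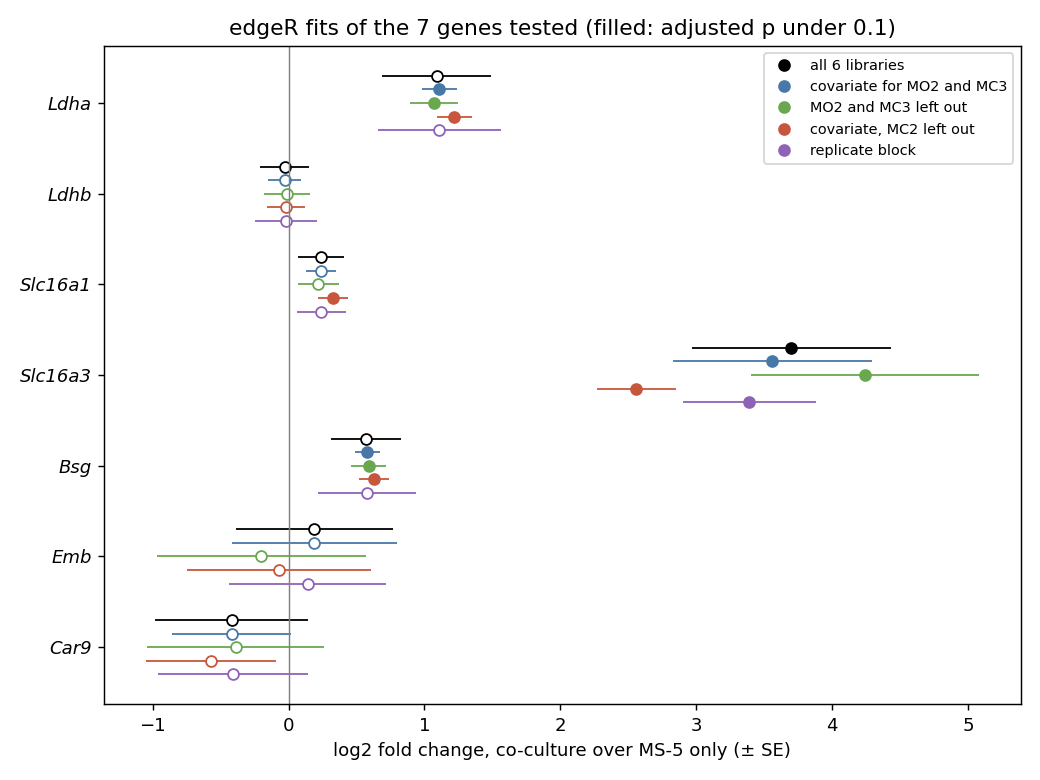
log2 fold change of co-culture over MS-5 only, with SE, for the 7 genes tested, in 5 edgeR fits (colours); filled points had an adjusted p under 0.1. Ldha and Bsg keep nearly the same fold change in all 5 fits while their SE shrinks once MO2 and MC3 are modelled or left out. Slc16a3 falls to 2.56 in the fit with the covariate and without MC2.

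Slc16a3, Ldha and Bsg divided their excess over MS-5 only among MC1, MC2 and MC3 in different ways. Ldha and Bsg did not pass edgeR's test on all 6 libraries without a covariate. Taken as TPM above the MS-5 only mean, the excess of Ldha was 44.2% in MC1, 26.5% in MC2 and 29.3% in MC3, and that of Bsg 37.5%, 20.6% and 41.9%. For Slc16a3 it was 15.8%, 60.3% and 23.9%. For the summed leukocyte markers it was 9.56%, 71.4% and 19.0%. Slc16a3 thus had its largest share in the library with the highest leukocyte marker level, while Ldha and Bsg had their smallest share there in TPM. In TMM-scaled CPM the smallest share of Ldha (12.2%) and of Bsg (12%) was in MC3. The excess of Slc16a3 in MC2 was 3.04 times the mean of MC1 and MC3, against 4.99 times for the leukocyte sum, 0.722 times for Ldha and 0.519 times for Bsg. Over the 5 single leukocyte markers named below, that ratio ran from 2.82 (Ptprc) to 5.69 (Laptm5) in TPM and from 4 to 7.31 in TMM-scaled CPM. On TMM-scaled CPM the ratio was 5.22 times for Slc16a3, 1.11 times for Ldha and 1.18 times for Bsg. The part of SKM-1 RNA in the Slc16a3 result was not tested. Among the leukocyte markers, Coro1a (an actin regulator of blood cells) was at 33.4 TPM in MC1, 188 TPM in MC2 and 44.2 TPM in MC3, and Spi1 (the myeloid factor PU.1) at 15.8, 108 and 27.1 TPM. The others of the 5 with the smallest p were Ptprc, Vav1 and Laptm5, all with MC2 highest.

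A processed pseudogene of Ldha had the same order of co-culture libraries in TPM as Slc16a3. Ldha-ps (chromosome 2, 60134055 to 60135049) had 1 estimated count in each MS-5 only library and 107, 548 and 96 in MC1, MC2 and MC3, without overlap. It passed the low-count filter only through co-culture, so that its edgeR adjusted p of 0.0734 adds nothing to these counts. MC2 held 74.2% of its excess in TPM. Its transcript of 995 bases aligned to Ldha-202 with 92.0% identity, with 76 mismatches in 999 aligned columns, and 119 of its 965 words of 31 bases (12.3%) occur in an Ldha transcript. The stretch of 90 bases with the most differences is shown, from base 794 of Ldha-202 and base 687 of Ldha-ps-201, with the 14 differing bases in capitals.
Ldha-202: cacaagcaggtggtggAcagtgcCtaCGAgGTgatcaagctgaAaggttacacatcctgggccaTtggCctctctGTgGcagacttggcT
Ldha-ps-201: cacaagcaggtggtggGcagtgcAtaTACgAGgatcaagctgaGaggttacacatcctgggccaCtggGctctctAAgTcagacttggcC
In each co-culture library the counts of Ldha-ps were few beside those of Ldha, which were 89828, 52553 and 48019 for MC1, MC2 and MC3. The part of SKM-1 RNA in the counts of Ldha-ps and of Ldha was not tested. The other annotated pseudogene, Ldha-ps2 (chromosome 4, 119334389 to 119335445), had at most 1 count in a library.

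**Figure D4:**
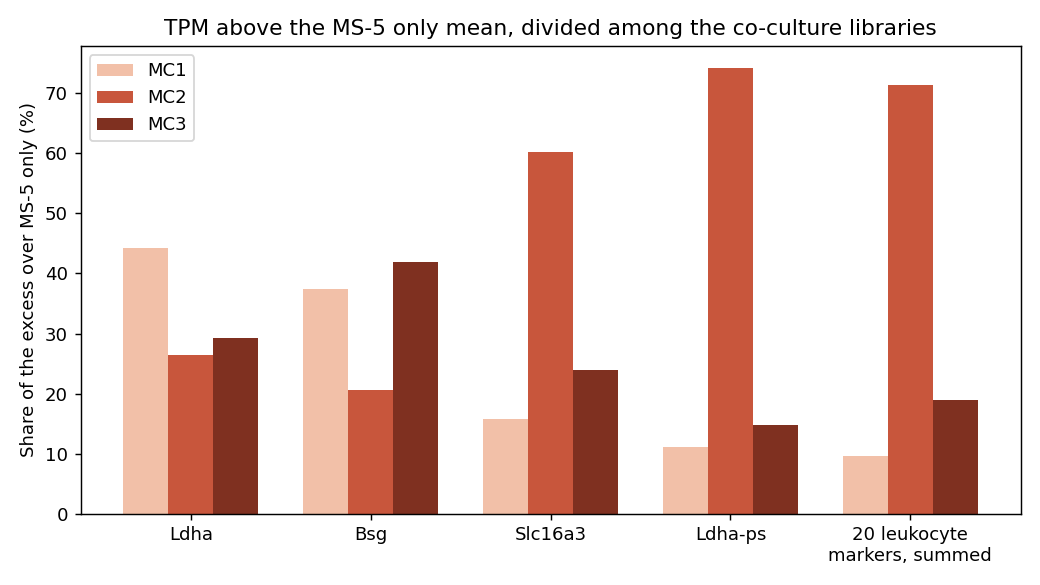
Share of the TPM above the MS-5 only mean that falls in MC1, MC2 and MC3, in percent on an axis from 0, for Ldha, Bsg, Slc16a3, the pseudogene Ldha-ps and 20 leukocyte markers summed. MC2 holds 26.5% and 20.6% for Ldha and Bsg, and 60.3%, 74.2% and 71.4% for the other three.

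The genes whose log2 CPM followed each member most closely over the 6 libraries were taken from 8886 protein-coding genes. For Ldha they were B4gat1 (Pearson r = 0.998), Pgam1 (0.996), a phosphoglycerate mutase of glycolysis, and Eno1b (0.995), an enolase. For Slc16a3 they were H2-M3 (0.996), Rassf5 (0.996) and Spi1 (0.994), the last one of the leukocyte markers. For Bsg they were Ndufv3 (0.994), Vhl (0.991) and Rilpl2 (0.991), for Slc16a1 Il10rb (0.994), Sec24d (0.984) and Snai1 (0.984), and for Ldhb Mettl21a (0.997), Rdh10 (0.985) and Cdkn2d (0.982). For Car9 they were Magt1 (0.997), Elmo2 (0.996) and Pnpla7 (0.993), and for Emb Iqcb1 (0.969), Mitd1 (0.952) and Mlkl (0.915). These are descriptions over 6 libraries that share the split of MO2 and MC3, and no p is attached to them. A correlation over both groups also holds the difference between the groups. The log2 fold changes of H2-M3, Rassf5 and Spi1 were 3.45, 0.60 and 6.18.

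The other genes of lactate and acid handling, from 5 lists, gave no gene past the threshold in edgeR's test on all 6 libraries. In that test 1885 of all 13221 genes were at an unadjusted p under 0.05, the background for the count given for each list. Of 18 relatives of the lactate genes, 8 were tested and none passed (1 at an unadjusted p under 0.05, and none by DESeq2 or limma). Slc16a10, a transporter of aromatic amino acids, had the largest log2 fold change, 2.13 (SE 0.86, edgeR adjusted p = 0.333), with 0.0561, 0.472 and 0.11 TPM in MS-5 only and 0.193, 1.47 and 1.05 TPM in co-culture, where MC1 overlapped with MO2. Slc16a10 was the 1 gene of this list at an unadjusted p under 0.05. It had 4, 22 and 5 estimated counts in MS-5 only. It passed the low-count filter only through co-culture, so that its fold and p are a description. MC2 held 70.6% of its excess in CPM, and the fold of 4.38 was 2.48 without MC2 and 8.32 without MO2. Slc16a11 followed at -0.54 (SE 0.55, edgeR adjusted p = 0.78), while its mean TPM was 0.773 in MS-5 only and 0.937 in co-culture, so that the direction differed between the scales. Nptn, which encodes neuroplastin, a relative of basigin, was the most abundant at 156 to 287 TPM in MS-5 only and 182 to 299 TPM in co-culture (log2 fold change 0.13, SE 0.12).

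Of 14 further carbonic anhydrases, 5 were tested and none passed (1 at an unadjusted p under 0.05, against 1885 of all 13221 genes, none by DESeq2 or limma). Car6, a secreted carbonic anhydrase, was at 9.57, 9.34 and 9.24 TPM in MO1, MO2 and MO3 and at 5.63, 3.88 and 3.13 TPM in MC1, MC2 and MC3, without overlap. Its log2 fold change was -1.09 (SE 0.39, edgeR adjusted p = 0.268), and it fell with the covariate for MO2 and MC3 (-1.15, SE 0.19, edgeR adjusted p = 0.0163), where 16.4% of all genes tested fell. Car13, a cytosolic form and the most abundant of the list, was at 32.4 to 35.5 TPM in MS-5 only and 20.9 to 27.9 TPM in co-culture. Car11, a carbonic anhydrase-related protein without enzyme activity, was at 7.03 to 15.9 TPM and 8.95 to 23.4 TPM. With the covariate Car13 fell and Car11 rose (edgeR adjusted p = 0.0174 and 0.0607).

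Of 24 acid extruders and bicarbonate transporters, 13 were tested and none passed (2 at an unadjusted p under 0.05, against 1885 of all 13221 genes, none by DESeq2 or limma). The largest changes were those of Hvcn1, the voltage-gated proton channel (log2 fold change -0.75, SE 0.26, edgeR adjusted p = 0.238), and Slc4a7, a sodium bicarbonate cotransporter (-0.45, SE 0.15, edgeR adjusted p = 0.241). Both fell with the covariate (edgeR adjusted p = 0.0389 and 0.0376), as did Slc9a8, which makes 3 of the 13, where 16.4% of all genes tested fell. Chp1, a cofactor of sodium-proton exchangers, was the most abundant at 79.8 to 92.4 TPM over all libraries.

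Of 25 subunits of the vacuolar proton pump (V-ATPase), which acidifies lysosomes, 20 were tested and none passed (1 at an unadjusted p under 0.05, against 1885 of all 13221 genes, none by limma, and 1 by DESeq2, Atp6v0a2). The median was -0.12, against -0.02 for all genes tested. Atp6v1g2 had the largest change, -0.77 (SE 0.50), and then Atp6v0a2 with -0.40 (SE 0.11, edgeR adjusted p = 0.139). With the covariate, Atp6v0a2 was among 6 of the 20 that fell, where 16.4% of all genes did, and none rose. Atp6v0c was the most abundant, at 329 to 386 TPM. Of 9 proton sensors, 2 were tested and neither passed (0 at an unadjusted p under 0.05, none by DESeq2 or limma). Asic1, a proton-gated channel at 4.20 to 7.52 TPM, had a log2 fold change of 0.00 (SE 0.14).

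**Figure D5:**
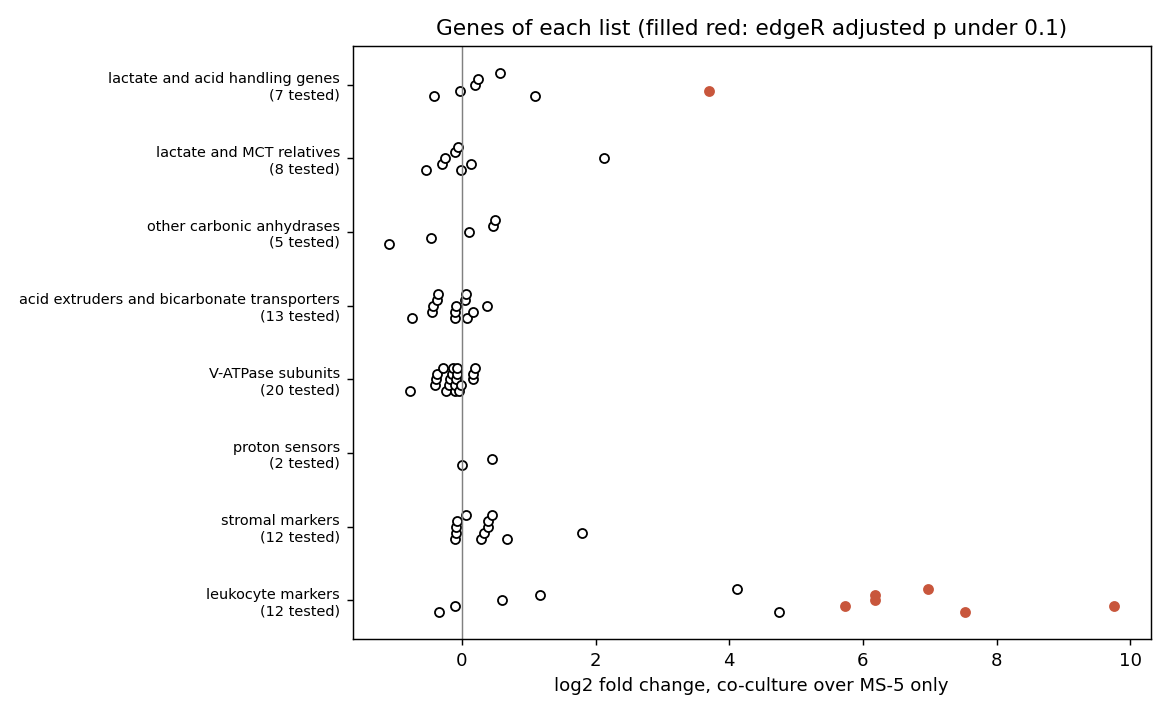
log2 fold change of co-culture over MS-5 only for each tested gene of the lactate and acid handling genes, 5 related lists and 2 marker lists; points are spread vertically only for legibility, and red points had an edgeR adjusted p under 0.1. Apart from Slc16a3 at 3.70, the red points are all leukocyte markers.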

How the data were processed

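RNA-seq of 3 MS-5 only and 3 co-culture libraries was used, grouped by the labels. The authors quantified the reads with Kallisto 0.43.0 on a mouse index (mm10 in the submitters' notes) after FastQC 0.11.7, and deposited an estimated count, a TPM value, a length and an effective length per transcript, unfiltered and not normalized between libraries. The deposited TPM values are estimated counts per effective length, scaled to a fixed total. Of 118489 transcripts, 116728 matched GENCODE M21 (GRCm38), and the other 1761, with 0.476% to 0.562% of the counts, were left out. Estimated counts and TPM were summed per gene, and the counts rounded.

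EdgeR 4.0.16 (R 4.3.3) was run with filterByExpr, TMM scaling, its quasi-likelihood test and Benjamini-Hochberg adjustment over 13221 genes, with a threshold of 0.1. SE was obtained by dividing each log2 fold change by the root of its F statistic. The script was tested on simulated data. Shares were compared by an exact permutation test (scipy). Alternatives used DESeq2 1.42.0, limma 3.58.1, other filters and scalings, a covariate, a replicate block and left-out libraries, and 1 (the covariate without MC2) was added after the values were seen. No label gives the split of MO2 and MC3, which was seen in these same libraries. The p-values of fits that model it or leave those libraries out are thus a description. The paper's Sleuth 0.30.0 was not used here. The values of a few list genes are not reported here.

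The members and gene lists were chosen with earlier results of these data known. Named genes are all members, the genes of each list past the threshold (at most 5) or else the 2 with the largest change, the most abundant gene of each list, and the 3 genes most like each member with at least 10 CPM; any other list gene named was chosen after its values were seen.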

Additional observations from a re-analysis of the deposited data

How the results depend on the processing

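The number of genes past the threshold (579) was 1268 with DESeq2's Wald test, 356 and 224 with limma on log2(TPM + 0.5) and log2(TPM + 1), 3 with protein-coding transcripts only (12242 genes tested), 3999 with a covariate for MO2 and MC3, 1655 with these left out, 3098 with the covariate and MC2 left out, and 2 and 0 at adjusted p 0.05 and 0.01. Leaving out 1 library gave 0 (each MS-5 only library) to 509. The 1 member past it became 2 (Ldha and Slc16a3) with DESeq2 and with limma at pseudocounts of 0.5 and 1, 3 (with Bsg) with limma at 0.1, 3 with the covariate, 3 without MO2 and MC3, 4 with the covariate and without MC2, and 0 with protein-coding transcripts only (Slc16a3 adjusted p = 0.13) and at 0.05 and 0.01; leaving out 1 library gave 0 to 1. Relatives of the lactate genes had 1 call without a filter. The other carbonic anhydrases had 1 without a filter (Car2), 3 with the covariate, with or without MC2, and 2 without MO2 and MC3. Acid extruders had 3 with the covariate, with or without MC2. V-ATPase subunits had 1 with DESeq2, 6 with the covariate, 2 without MO2 and MC3, and 3 with the covariate and without MC2. The cause of these moves was not tested.

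Members never past the threshold changed sign: Ldhb to 0.14 without MO3 and 0.05 without MC3 (leave-one-out range -0.11 to 0.14), Emb to -0.02 with protein-coding transcripts, -0.20 without MO2 and MC3, -0.03 without MC3 (range -0.03 to 0.54) and -0.07 with the covariate and without MC2, and Car9 to 0.02 and 0.12 with limma (pseudocounts 0.5 and 0.1) and 0.01 without MO2 (range -0.84 to 0.01). The difference in the Ldhb share ranged from -3.3 to -1.65 percentage points over 9 alternatives, and that in the Slc16a3 share from 12 (CPM in place of TPM) to 28.4 (without MC1), both within the larger of the 2 group SDs of the main value but beyond the smaller one. Genes with few counts (Emb, Car9, Car12, Slc16a7) are limited by depth.

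The replicate numbers were checked as pairs by the correlation of deviations from the group means over 13221 genes. Number 1 gave 0.53, number 2 gave -0.29 and number 3 gave -0.52, so that the libraries share only a number, and MO2 correlated best with MC3 (0.73). With the replicate block, 444 genes and 1 member were past the threshold, Slc16a3 with a log2 fold change of 3.39 (edgeR adjusted p = 0.0386).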

Other observations

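Hcar1, the lactate receptor, was tested and had a log2 fold change of -0.06 with an edgeR adjusted p of 0.984. Ldhd, the mitochondrial D-lactate dehydrogenase, had one of -0.02 with an edgeR adjusted p of 0.995, at 1.12 TPM on average in MS-5 only. The sodium-coupled lactate carriers Slc5a8 and Slc5a12 and the testis subunit Ldhc did not pass the filter on low counts. The anion exchanger Slc4a2 was at 43.5 TPM on average in MS-5 only (log2 fold change 0.17, edgeR adjusted p = 0.6). These genes were chosen after their values were seen.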
